A study of Homo sapiens with 20 samples.

Results

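Divergent promoter lncRNAs are long non-coding RNAs that start next to the promoter of a coding gene and are transcribed away from it on the opposite strand. GENCODE, the reference gene annotation, names such a gene after its coding neighbour with the ending -DT, and that neighbour is called the partner here. The genes described are those with this ending, CNN3-DT left out, that had an estimated count of 20 or more in both wild type (wt) chromatin RNA libraries. They came to 371 of the 580 genes with the ending and of 57087 genes in all. Just inside this limit were USP27X-DT with 20 and 24 counts and PPM1K-DT with 20 and 30. Just outside it were TARS1-DT and PPM1L-DT, each with 19 and 23 counts, and UHRF1BP1L-DT with 18.7 and 21.1. Since the genes were chosen by their counts in the wt chromatin libraries, their wt levels are given as a description. The numbers of lncRNAs and pairs that changed against wt in the inducible lines are set beside those against the libraries labelled shDrosha, which the choice did not use.

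RNA was sequenced from lines of human embryonic kidney cells in which factors of the microRNA pathway were targeted with short hairpin RNAs (shRNA). The labels give HEK293 for the chromatin libraries, whereas the methods name wild type HEK293T and recombinant HEK293T-REx cells. Chromatin RNA sequencing (chrRNA-seq), which reads RNA that is still attached to chromatin and so is rich in transcripts being made, covered 2 libraries each of wt, shDicer, shAgo2 and shDrosha cells. The shDicer and shAgo2 cells carried integrated inducible shRNA cassettes and received doxycycline at 3 µg/ml for 72 h, whereas DROSHA was targeted with a transfected shRNA plasmid. For the wt and shDrosha chromatin libraries no doxycycline is stated. In mRNA-seq, 3 libraries of HEK293T wt cells were compared with 3 of HEK293 2B cells with Dicer knockdown, and both received doxycycline at 3 µg/ml for 7 days. The methods list a clone 1.3 whose cassette holds tagged Dicer beside the shRNA and, apart from it, inducible shDicer lines, and which of them was sequenced is not given in the sources used here. No line with a control shRNA is among these libraries. The knockdown and the line therefore cannot be told apart. The labels do not say whether replicates came from separate cultures, so that p-values measure only the spread between libraries.

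At most active CpG-rich promoters, RNA polymerase II starts in both directions. Transcription in the upstream direction usually ends early, at poly(A) signals close to the start, and its RNA is removed by the nuclear exosome. In the coding direction the U1 snRNP, which binds 5′ splice sites, holds back such early ends. Dicer cuts double-stranded RNA into small RNAs, Ago2 binds them, and Drosha releases microRNA precursors in the nucleus.

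The promoter sequences of 6 members whose changes are described further on show what these starts look like. Each run holds the 300 bases from 250 before to 50 after the RefSeq start of the lncRNA on GRCh38.p14, read 5′ to 3′ on its own strand. Capitals mark the box CCAAT, the ETS core CCGGAAG, the TATA form TATAAA and the GC box core GGGCGG on either strand. ZNF8-DT (chr19:58278693-58278992, minus strand), ZNF567-DT (chr19:36687400-36687699, minus), EPB41L4A-DT (chr5:112419333-112419632, plus) and ZNF230-DT (chr19:44002821-44003120, minus) are shown because they had the highest values in shDicer and shAgo2 cells relative to wt. BARX1-DT (chr9:93955584-93955883, plus) and HCCS-DT (chrX:11111089-11111388, minus) are shown as members with lower values.
ZNF8-DT: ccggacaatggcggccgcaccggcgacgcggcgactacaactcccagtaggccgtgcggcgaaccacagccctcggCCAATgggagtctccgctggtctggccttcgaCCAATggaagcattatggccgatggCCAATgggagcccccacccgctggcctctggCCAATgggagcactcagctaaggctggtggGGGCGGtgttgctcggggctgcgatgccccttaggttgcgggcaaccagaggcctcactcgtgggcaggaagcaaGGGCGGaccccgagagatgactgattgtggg
ZNF567-DT: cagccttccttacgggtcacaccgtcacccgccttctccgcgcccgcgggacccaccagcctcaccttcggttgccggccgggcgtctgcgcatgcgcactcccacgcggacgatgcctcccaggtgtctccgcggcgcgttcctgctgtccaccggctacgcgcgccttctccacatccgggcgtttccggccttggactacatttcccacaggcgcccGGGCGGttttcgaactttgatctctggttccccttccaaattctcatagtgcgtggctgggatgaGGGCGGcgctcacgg
EPB41L4A-DT: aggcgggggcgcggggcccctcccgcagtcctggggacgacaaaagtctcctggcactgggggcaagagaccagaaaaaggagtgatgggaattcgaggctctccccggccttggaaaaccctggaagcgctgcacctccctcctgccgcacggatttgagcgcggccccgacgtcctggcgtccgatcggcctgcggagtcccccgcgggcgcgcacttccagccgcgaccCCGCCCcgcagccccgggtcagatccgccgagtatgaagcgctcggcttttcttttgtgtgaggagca
ZNF230-DT: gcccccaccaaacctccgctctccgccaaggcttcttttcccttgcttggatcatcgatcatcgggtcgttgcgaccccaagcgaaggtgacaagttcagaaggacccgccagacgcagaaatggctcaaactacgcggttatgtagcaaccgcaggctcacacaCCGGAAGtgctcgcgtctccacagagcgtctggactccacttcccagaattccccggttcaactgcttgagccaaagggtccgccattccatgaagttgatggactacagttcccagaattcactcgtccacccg
BARX1-DT: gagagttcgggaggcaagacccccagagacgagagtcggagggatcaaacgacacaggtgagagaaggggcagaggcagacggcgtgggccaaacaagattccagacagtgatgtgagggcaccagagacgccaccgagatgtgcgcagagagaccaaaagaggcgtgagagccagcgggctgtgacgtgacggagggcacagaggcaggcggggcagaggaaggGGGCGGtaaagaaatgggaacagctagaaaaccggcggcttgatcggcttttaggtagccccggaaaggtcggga
HCCS-DT: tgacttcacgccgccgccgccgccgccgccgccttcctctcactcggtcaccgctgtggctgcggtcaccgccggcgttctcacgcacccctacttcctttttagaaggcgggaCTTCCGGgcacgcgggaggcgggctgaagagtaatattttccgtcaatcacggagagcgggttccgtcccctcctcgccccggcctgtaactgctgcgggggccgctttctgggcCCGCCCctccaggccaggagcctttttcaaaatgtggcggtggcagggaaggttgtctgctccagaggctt

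The ZNF8-DT window held 4 matches to CCAAT and 2 to GGGCGG, and the start of ZNF8 lay at position 38 of it, counted from its 5′ end. The ZNF567-DT window held 2 matches to GGGCGG, with the start of ZNF567 at position 88. The windows of ZNF230-DT and HCCS-DT each held 1 match to CCGGAAG, with the partner starts at positions 164 and 57. EPB41L4A-DT and BARX1-DT each had 1 match to GGGCGG, and EPB41L4A and BARX1 started outside these windows. GENCODE and RefSeq place some starts differently, since the GENCODE start lay at position 163 for ZNF8-DT and at position 14 for BARX1-DT, upstream of the RefSeq start.

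RefSeq promoters were found for 284 of the 371 lncRNAs and 315 partners. GGGCGG, the core of the GC box, was present in 76.1% of the lncRNA promoters and 71.4% of the partner promoters, against 59.6% of all coding promoters and 44.6% of all promoters. CCGGAAG, a core bound by ETS factors, was found in 22.2% and 25.4%, against 14.5% and 10.7%. CCAAT was in 31.3% of the lncRNA and 41.3% of the partner promoters, against 36.6% of coding and 35.7% of all promoters. TATAAA was in 5.28% and 4.76%, against 9.48% and 12.0%. The median promoter of these lncRNAs held 31 CpG dinucleotides in its 300 bases, and the median of all promoters held 14. As the starts of most pairs lie close together, the lncRNA and partner windows share much of their sequence.

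Downstream of the start the pairs differed. In the first 1000 bases of transcribed DNA, AATAAA, the usual poly(A) signal, was present on the sense strand in 35.0% of the lncRNAs and 15.6% of their partners, and in 19.5% of coding and 41.7% of lncRNA genes tested in chromatin. It was more frequent in the lncRNA in 112 of 366 pairs, equally frequent in 218 and more frequent in the partner in 36. GGTAAG, a strong form of the 5′ splice site, was more frequent in the lncRNA in 54 pairs and in the partner in 61. The median GC content of these windows was 52.1% in the lncRNAs and 60.9% in the partners, which moved with the AT-rich signal, and its part in the difference was not tested.

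In most pairs both starts lay in one promoter. The distance between the starts had a median of 186 bases over the 370 pairs with a partner in the files. It was at most 300 bases in 260 pairs, more than 300 and up to 1000 in 75 and greater in 35, and in 22 pairs the lncRNA started inside the partner. The partner FOXF2 was not analysed here. The canonical transcripts had a median of 3 exons and 1511 bases, and 72 had a single exon. In 220 genes no exon base lay opposite an exon of another gene. In 12 genes more than 50% of exon bases did, and in 15 genes more than 50% of the 31-base words occurred in transcripts of other genes, so that their counts are less certain.

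In wt chromatin the 371 lncRNAs had a median of 109 counts, or 6.65 CPM (counts scaled to the size of the library), and together took between 0.455 and 0.508% of the counts of a chromatin library. The highest count belonged to GARS1-DT, beside the gene of glycyl-tRNA synthetase, with 3314 and 3069 counts. EOLA2-DT followed with 2545 and 2275, EPM2A-DT, beside the gene of the glycogen phosphatase laforin, with 2108 and 2067, and TMED2-DT with 2084 and 1942. RWDD3-DT, COX10-DT, ZNF584-DT and SPAG16-DT had between 1243 and 1961 counts. These counts are not corrected for length. Per length, in TPM (transcript levels corrected for length and library size), EPM2A-DT reached 144 and TMED2-DT only 8.40 in wt chromatin.

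Per length, the lncRNAs were mostly below their partners and far more so in mRNA-seq. The median was 4.57 TPM for the lncRNAs and 17.4 TPM for the partners in wt chromatin, and 0.296 against 8.58 TPM in wt mRNA-seq. The lncRNA was above its partner in 81 of 370 pairs in chromatin and in 28 in mRNA-seq. On the scale of log2(TPM + 0.1), the mRNA-seq level relative to the chromatin level had a median of −3.43 in the lncRNAs, −1.12 in the partners, −3.88 in the other 9062 lncRNA genes tested and −2.95 in all 32874 genes tested. It was lower in the lncRNA than in its own partner in 314 of 370 pairs, with a median difference of −2.24. Both assays differ in library kit and RNA source, and the mRNA libraries are labelled poly(A) RNA while the methods describe ribosomal RNA depletion. The ratio is therefore given as a description. The part of the library kit in its level and in the order of genes was not tested. The pair GARS1-DT and GARS1 illustrates the lower ratio of the lncRNA, with 92.0 and 56.7 TPM in chromatin and 7.36 and 60.3 TPM in mRNA-seq. In mRNA-seq 83 of the lncRNAs stayed at 3 counts or fewer in every wt library, and 4 were at 0 in all 6 libraries, which allows up to 0.294 CPM in the shallowest.

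**Figure D1:**
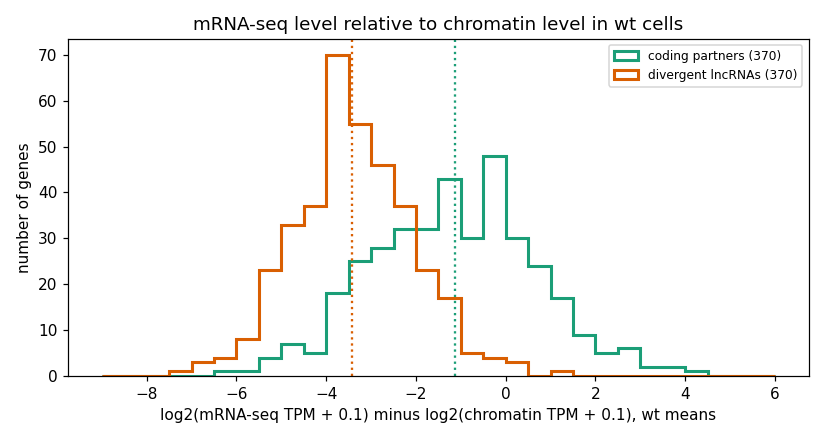
Histogram of the wt mRNA-seq level relative to the wt chromatin level, as the difference of log2(TPM + 0.1), for 370 divergent lncRNAs and their 370 coding partners, with the number of genes on the vertical axis. Dotted lines mark the medians, −3.43 for the lncRNAs and −1.12 for the partners, and the lncRNAs lie to the left of the partners.

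The libraries were checked through their depth, the targeted genes and cell markers. Totals were 17484067 to 21553760 counts in chromatin and 10216430 to 17215978 in mRNA-seq. DICER1 fell in shDicer mRNA-seq from 247 ± 13.5 to 87.8 ± 6.92 CPM (SD, n = 3, edgeR adjusted p = 1.3e-07). In chromatin it had 122 ± 3.79 CPM in wt, 108 ± 0.87 in shDicer and 209 ± 7.51 in shAgo2 (SD, n = 2), and shDicer did not differ from wt (edgeR adjusted p = 0.17). AGO2 chromatin RNA fell from 247 ± 10.7 to 161 ± 2.07 CPM in shAgo2 (SD, n = 2, edgeR adjusted p = 9.3e-05). DROSHA chromatin RNA was 150 ± 5.25 CPM in wt and 157 ± 12.9 in the libraries labelled shDrosha (SD, n = 2, edgeR adjusted p = 0.70). A knockdown of DROSHA thus does not show in chromatin RNA, nor does that of DICER1 in shDicer. The paper measured steady-state RNA of Drosha, Dicer and Ago2 by qRT-PCR in the chromatin RNA samples. It also describes the knockdowns of Dicer, Drosha and Ago2 as successful by western blot. Neither steady-state RNA nor protein is measured by these chromatin libraries. Of 10 markers of HEK293 cells, all were above 1 CPM in wt, shDicer and shDrosha chromatin, 8 in shAgo2 chromatin, 8 in wt and 7 in shDicer mRNA-seq. Their summed level was 686 to 761 CPM in wt, 453 to 622 in shDicer, 443 to 475 in shAgo2 and 411 to 517 in shDrosha chromatin, and 519 to 609.6 in wt and 859 to 1278 in shDicer mRNA-seq. Of 12 markers of blood, liver, fibroblast, keratinocyte and epithelial cells, the sum was 41.9 to 42.4 CPM in wt, 86.0 to 94.2 in shDicer, 89.7 to 92.6 in shAgo2 and 40.4 to 46.6 in shDrosha chromatin, and 3.07 to 4.38 in wt against 167 to 195 CPM in shDicer mRNA-seq. The HEK293 sums hide opposite changes, since NEFL went from 12.0 CPM on average in wt to 160.1 in shDicer and 90.3 in shAgo2 chromatin and from 16.6 to 454 in shDicer mRNA-seq, whereas NEFM went from 24.5 to 2.51 and 0.918 in chromatin. EPCAM gave most of the higher sums of the other markers, with 173 CPM on average in shDicer mRNA-seq, and KRT5 was at 0 throughout. The part of cell makeup in the changes described next was not tested, and in bulk RNA fewer cells of a type and less RNA per cell cannot be told apart.

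Most divergent lncRNAs, like most genes of any kind, lay close to their former level when Dicer or Ago2 was targeted. In shDicer chromatin, 24 of the 371 rose and 20 fell against wt (edgeR quasi-likelihood test, adjusted p under 0.005), where 11.0% of all genes rose and 10.5% fell. In shAgo2 chromatin 44 rose and 22 fell, beside 12.5% and 12.1% of all genes. The log2 fold change had a median of 0.02 over the lncRNAs in shDicer and 0.06 in shAgo2, and of 0.01 and 0.00 over all genes. As the wt libraries chose the lncRNAs, nothing is read from these shares. Relative to the shDrosha libraries, 25 rose and 19 fell in shDicer, that is 6.74% and 5.12% of the lncRNAs, beside 11.0% and 9.51% of all genes. In shAgo2 31 rose and 25 fell, that is 8.36% and 6.74%, beside 11.6% and 10.3% of all genes. The count limit in wt was asked of the lncRNAs and not of all genes, so that genes seen only in the inducible lines could enter the latter alone. Of the 25872 genes of any kind at the same limit, 11.4% rose and 11.6% fell in shDicer relative to shDrosha, and 11.9% and 12.7% in shAgo2. These genes were more abundant, with a median log2 CPM of 3.72 against 2.79 in the lncRNAs, and the part of abundance in the lower shares of the lncRNAs was not tested. A log2 fold change within 0.5 of 0 relative to shDrosha was found for 296 lncRNAs in shDicer and 287 in shAgo2. The same held for 21556 and 21056 of all 32874 genes, and for 263 and 261 of the 366 partners. The partners, more abundant at a median log2 CPM of 5.36, had larger shares, with 54 of 366 rising and 69 falling in shDicer and 52 and 70 in shAgo2. Among other lncRNA genes, with a median log2 CPM of 1.89, 667 of 9062 rose and 426 fell in shDicer relative to shDrosha, which is 7.36% and 4.70%, and 692 and 489 in shAgo2, which is 7.64% and 5.40%. The shares of the divergent lncRNAs lay close to these. Both comparisons with wt share the same wt libraries. With wt replicate 1 or 2 left out, which leaves 1 wt library that is assumed to vary like the other groups, the shDicer counts became 10 and 9, or 11 and 10, and the shAgo2 counts 15 and 10 in either case. Leaving out shDicer replicate 1 or 2 gave 12 falling in shDicer. Leaving out shAgo2 replicate 1 gave 14 rising and 9 falling in shAgo2, and leaving out replicate 2 gave 20 and 8.

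**Figure D2:**
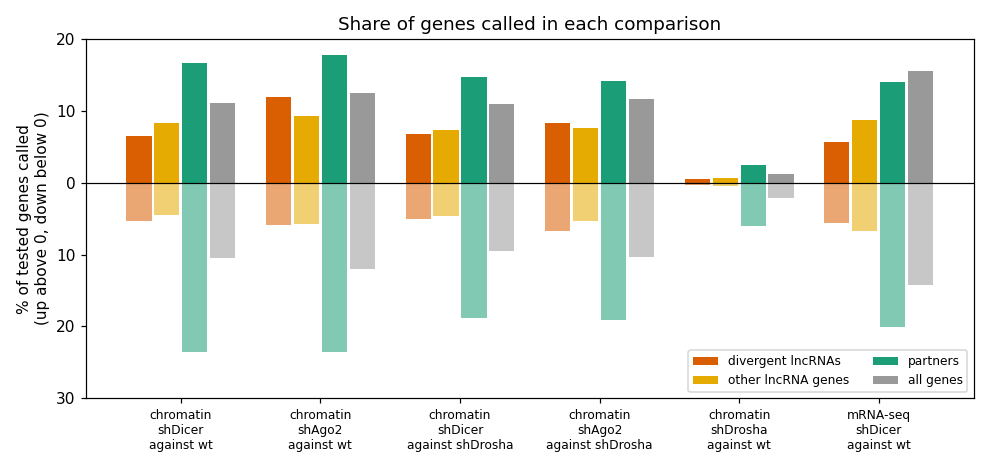
Percentage of tested genes called in each comparison, rising above 0 and falling below 0, for divergent lncRNAs, other lncRNA genes, the coding partners and all genes. In the chromatin comparisons of shDicer and shAgo2 with shDrosha, the bars of the divergent lncRNAs (6.74 and 5.12%, 8.36 and 6.74%) lie near those of other lncRNA genes and below those of all genes, which were not held to the count limit in wt.

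The highest log2 fold changes in both inducible lines, against wt and against shDrosha, were those of ZNF8-DT and then ZNF567-DT. The lncRNAs named for changes against wt were picked among called ones whose libraries did not overlap with wt. Such separation from wt is therefore part of the choice and no further evidence. Both lie beside genes of C2H2 zinc finger proteins, a large family of DNA-binding factors. ZNF8-DT (chr19:58257270-58278830, minus strand) had 8.18 and 7.96 CPM in wt, 53.3 and 45.5 in shDicer, 53.4 and 52.9 in shAgo2 and 6.97 and 7.46 in shDrosha chromatin. All 4 libraries of the inducible lines lay far above the other 4. The log2 fold change was 2.61 ± 0.11 (SE) in shDicer and 2.72 ± 0.11 in shAgo2 against wt, and 2.77 and 2.88 against shDrosha (edgeR adjusted p = 5.8e-09 and 4.2e-09). ZNF8 itself had 84.0 and 83.5 CPM in wt, 96.3 and 94.0 in shDicer and 85.6 and 85.5 in shAgo2 and was not called. In the 50 tested genes around ZNF8-DT the median log2 fold change was 0.06 in both lines. Its transcripts had 14.4% of exon bases opposite exons of other genes.

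ZNF567-DT (chr19:36682636-36687468, minus strand) had 5.34 and 5.37 CPM in wt, 27.5 and 29.3 in shDicer, 29.8 and 28.6 in shAgo2 and 6.97 and 5.23 in shDrosha. The log2 fold change was 2.41 ± 0.13 and 2.45 ± 0.13 (SE) against wt and 2.22 and 2.26 against shDrosha (edgeR adjusted p = 1.4e-07 and 9.9e-08 for the latter). Here the partner rose too, with log2 fold changes of 1.33 and 1.53 for ZNF567 relative to shDrosha, and the median over the 50 genes around was 1.17 in shDicer and 1.41 in shAgo2 against wt. ZNF230-DT had 3.14 and 2.59 CPM in wt, 7.05 and 12.1 in shDicer, 11.9 and 11.6 in shAgo2 and 3.997 and 2.23 in shDrosha. Both shDicer libraries were far apart, and the log2 fold changes were 1.62 ± 0.28 and 1.92 ± 0.27 (SE) against shDrosha (edgeR adjusted p = 0.00065 and 0.00015). ZNF230 rose by 1.35 and 1.62, its neighbourhood had medians of 0.72 and 0.83 against wt, and 52.6% of the exon bases of ZNF230-DT lay opposite other exons, while 50.5% of its 31-base words were shared. Taken relative to its neighbourhood, ZNF230-DT was no longer called against wt in either line, and without wt replicate 1 or 2 it was no longer called in shDicer, with log2 fold changes of 1.88 and 1.60. Of the 15 lncRNAs with a partner named ZNF, a group formed after these values were seen, 3 rose in shDicer and 4 in shAgo2 against wt. Relative to shDrosha, 4 rose and 1 fell in shDicer, and 5 rose and 1 fell in shAgo2. Among the other 356 lncRNAs, 21 rose in shDicer and 40 in shAgo2 against wt. Relative to shDrosha, 21 of them rose and 18 fell in shDicer, and 26 rose and 24 fell in shAgo2. Of all genes, 11.0% rose and 9.51% fell in shDicer relative to shDrosha, and 11.6% and 10.3% in shAgo2. The ZNF group holds ZNF8-DT, ZNF567-DT and ZNF230-DT, whose values had been seen, so that nothing is read from its counts.

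The other rises were at partners of different kinds. EPB41L4A-DT (chr5:112419583-112420978, plus strand), beside a gene of the band 4.1 family, had 2.13 and 1.52 CPM in wt, 7.11 and 7.15 in shDicer, 8.80 and 8.79 in shAgo2 and 2.51 and 2.99 in shDrosha. The inducible lines lay above the other libraries, with log2 fold changes of 1.37 ± 0.17 and 1.67 ± 0.17 (SE) relative to shDrosha (edgeR adjusted p = 6.5e-05 and 1e-05), and EPB41L4A rose by 0.55 and 0.67 in the same comparisons. PKD2L2-DT, beside a gene of the polycystin channel family, had 5.87 and 6.505 CPM in wt, 15.6 and 19.3 in shDicer, 20.2 and 18.2 in shAgo2 and 6.11 and 5.72 in shDrosha. It was higher in both lines, by 1.56 and 1.70 on the log2 scale relative to shDrosha (edgeR adjusted p = 4.5e-06 and 1.9e-06), while PKD2L2 had log2 fold changes of 0.30 and 0.34 and was not called. TMEM132E-DT had 1.66 and 1.64 CPM in wt, 4.32 and 5.83 in shDicer, 5.06 and 4.64 in shAgo2 and 2.57 and 1.85 in shDrosha. Its log2 fold changes were 1.20 and 1.14 relative to shDrosha (edgeR adjusted p = 0.001 and 0.0014). The 18 other lncRNAs that rose in shDicer against wt did so by 0.41 to 1.47 on the log2 scale, and the 38 others in shAgo2 by 0.31 to 1.41.

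Among the lncRNAs that fell, BARX1-DT (chr9:93955597-93959140, plus strand) was nearly absent from the inducible lines. It had 8.89 and 8.27 CPM in wt, 0.42 and 0.53 in shDicer, 0.54 and 0.49 in shAgo2 and 7.54 and 8.71 in shDrosha. The groups were far apart, with log2 fold changes of −4.16 ± 0.23 and −4.04 ± 0.22 (SE) against wt and −4.08 and −3.96 against shDrosha (edgeR adjusted p = 1e-07 and 9.1e-08). BARX1, a homeobox transcription factor gene, had 16.3 and 14.4 CPM in wt and 8.68 and 9.09 in shDrosha, and only 1 to 6 counts per library in shDicer and shAgo2, so that no fold change is given for it. APCDD1L-DT had 7.65 and 9.66 CPM in wt, 3.63 and 3.34 in shDicer, 1.97 and 1.97 in shAgo2 and 8.79 and 9.96 in shDrosha. It was low in both lines and lowest in shAgo2, with log2 fold changes of −1.43 and −2.25 relative to shDrosha (edgeR adjusted p = 3.3e-05 and 1.7e-06), and APCDD1L fell as well, with −0.95 and −1.86. The difference between shDicer and shAgo2 in APCDD1L-DT did not pass the test (edgeR adjusted p = 0.025).

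HCCS-DT (chrX:10847578-11111220, minus strand) starts 112 bases from HCCS, the gene of the enzyme that attaches haem to cytochrome c. It had 18.02 and 16.7 CPM in wt, 7.84 and 8.42 in shDicer, 5.56 and 5.51 in shAgo2 and 19.4 and 18.1 in shDrosha. Both lines were below all other libraries, with log2 fold changes of −1.20 and −1.76 relative to shDrosha (edgeR adjusted p = 5.7e-06 and 3.6e-07), and HCCS fell too, with −1.73 and −2.20. RIPK2-DT, beside the gene of a kinase in NOD receptor signalling, had 45.1 and 45.4 CPM in wt, 20.3 and 19.8 in shDicer, 22.1 and 21.8 in shAgo2 and 45.6 and 45.5 in shDrosha. Its replicates lay close together, with log2 fold changes of −1.18 and −1.05 relative to shDrosha (edgeR adjusted p = 4.8e-07 and 1.1e-06), and RIPK2 fell too, with −1.04 and −0.81.

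EOLA1-DT had 47.2 and 49.95 CPM in wt, 25.2 and 20.1 in shDicer, 27.0 and 22.9 in shAgo2 and 47.7 and 48.2 in shDrosha, and its near namesake EOLA2-DT had 151 and 144, 86.9 and 75.2, 84.0 and 87.7, and 146 and 150 CPM. Both were lower in both lines than in all other libraries, with log2 fold changes relative to shDrosha of −1.08 and −0.94 for EOLA1-DT and −0.87 and −0.79 for EOLA2-DT. Both genes lie on the X chromosome, and 56.4% of the 31-base words of EOLA1-DT occur in other genes, so that their values may not be independent. CAPN10-DT, beside a calpain protease gene, had 52.2 and 47.4 CPM in wt, 24.0 and 19.8 in shDicer, 25.2 and 24.7 in shAgo2 and 34.3 and 34.2 in shDrosha. Here shDrosha lay between wt and the inducible lines, the log2 fold changes relative to shDrosha were −0.65 and −0.46 (edgeR adjusted p = 0.0004 and 0.0036), and the surrounding 50 genes had medians of −0.73 in shDicer and −0.39 in shAgo2 against wt. ZBTB44-DT had 3.32 and 2.97 CPM in wt, 1.26 and 1.43 in shDicer, 1.28 and 1.04 in shAgo2 and 2.28 and 2.83 in shDrosha. It was low in both lines, but relative to shDrosha only shAgo2 passed the test (edgeR adjusted p = 0.0035, against 0.011 in shDicer). The 14 other lncRNAs that fell in shDicer against wt did so by 0.42 to 1.10 on the log2 scale, and the 16 others in shAgo2 by 0.39 to 0.98.

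**Figure D3:**
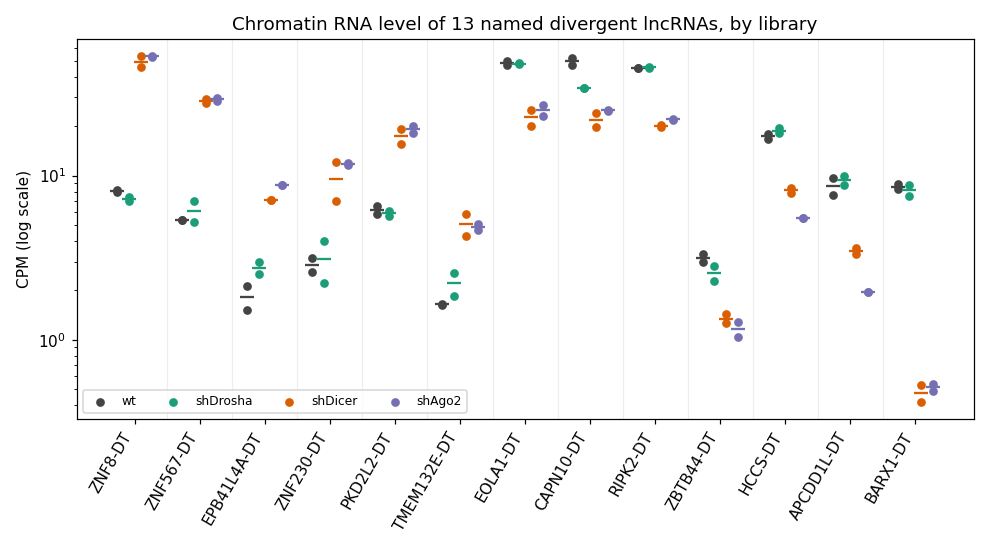
Chromatin RNA level in CPM (log scale) of 13 divergent lncRNAs in each of the 8 libraries, by group, with points for libraries and bars for group means. The 6 to the left lie higher and the 7 to the right lower in shDicer and shAgo2 than in wt. Of the 13, CAPN10-DT alone, at 34.3 and 34.2 CPM in shDrosha, was called there against wt. Some others, such as EPB41L4A-DT and TMEM132E-DT, have shDrosha points apart from their wt points without a call.

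The partners show whether a divergent lncRNA and the coding gene in its name change together, and the pairs include some with starts far apart. Of the 25 lncRNAs that rose in shDicer relative to shDrosha, 11 had a partner that rose and 14 one not called. Of the 19 that fell, 12 had a partner that fell, 6 one not called and 1 one that rose. In shAgo2 the rising lncRNAs had 15 rising and 16 uncalled partners, and the falling ones had 15 falling and 10 uncalled. A partner was called while its lncRNA was not in 42 rising and 57 falling pairs in shDicer and in 37 and 55 in shAgo2. Across 366 pairs the log2 fold changes of lncRNA and partner had a Pearson r of 0.46 in shDicer and 0.49 in shAgo2 relative to shDrosha, and over 2512 other head-to-head gene pairs r was 0.43 and 0.44. These are correlations across pairs, which are not replicates, and both genes of a pair share the libraries. In pairs with starts at most 300 bases apart r was 0.53 in shDicer relative to shDrosha (258 pairs), 0.51 at more than 300 and up to 1000 bases (74 pairs) and 0.15 beyond (34 pairs). Spearman's rho for the same pairs was 0.45, 0.46 and 0.31. In shAgo2 relative to shDrosha r was 0.55, 0.51 and 0.19, and rho was 0.41, 0.46 and 0.35. Against wt rho was 0.38, 0.39 and 0.34 in shDicer, but 0.37, 0.35 and 0.49 in shAgo2. The 34 pairs farthest apart thus had the lowest value in all of these but the last, and the differences between the distance groups were not tested.

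Whether both genes of a pair changed by different amounts was tested on the log2 ratio of the lncRNA to its partner, with limma over all head-to-head pairs. In shDicer the ratio changed in 51 of 366 pairs against wt, with the lncRNA gaining in 34 and losing in 17, where 9.52% of all 2878 pairs changed. In shAgo2 it changed in 59, with 36 and 23, where 12.6% of all pairs did. Relative to shDrosha it changed in 37 pairs in shDicer, with 18 gains and 19 losses, beside 8.79% of all pairs, and in 38 in shAgo2, with 21 and 17, beside 9.42%. As shares of the 366 pairs the last values are 10.1% and 10.4%, close to those of all pairs. Gains outnumbered losses against wt but not in shDicer against shDrosha. Without wt replicate 1 or 2, shDicer had 23 and 15 such pairs against wt and shAgo2 20 and 18. Leaving out a replicate of shDicer or shAgo2 gave 23 to 30 pairs in shDicer, and leaving out a replicate of shAgo2 gave 18 and 21 in shAgo2.

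Relative to shDrosha the ratio changed most in the pairs of EPCAM and PTPRD, coding genes of low wt level that were far higher in the inducible lines. EPCAM, a cell adhesion gene of epithelia, had 1.36 and 1.64 CPM in wt, 40.8 and 49.2 in shDicer, 37.2 and 37.0 in shAgo2 and 1.71 and 2.07 in shDrosha chromatin. EPCAM-DT, whose start lies 24322 bases away, had 34.2 and 33.5, 37.0 and 37.9, 42.5 and 40.7, and 38.6 and 38.6 CPM in the same libraries. While EPCAM lay far higher in both lines, its lncRNA was already abundant in wt and varied little. The log2 ratio changed by −4.54 ± 0.16 (SE) in shDicer and −4.12 ± 0.16 in shAgo2 relative to shDrosha (limma adjusted p = 7.1e-08 and 7.8e-08). PTPRD, a receptor tyrosine phosphatase gene, had 1.54 and 1.39 CPM in wt and 31.3 to 37.6 in the inducible lines, and PTPRD-DT, 200 bases away, had 5.10 and 3.98 in wt, 6.37 and 4.61 in shDicer and 5.16 and 5.90 in shAgo2. The lncRNA groups overlapped between wt and shDicer, and the log2 ratio changed by −4.01 and −4.08 relative to shDrosha (limma adjusted p = 1.3e-06 and 1.1e-06). SETBP1-DT, ASXL3-DT and OSMR-DT also lost against their partners, with changes of the log2 ratio of −2.32, −1.34 and −1.09 in shDicer relative to shDrosha (limma adjusted p = 1.1e-05, 0.00064 and 0.002). OSMR, the oncostatin M receptor gene, had 10.4 and 12.3 CPM in wt and 31.1 and 37.3 in shDicer, and OSMR-DT 8.18 and 7.89 and 10.8 and 12.2. VSTM2B-DT had 15.4 and 15.5 CPM in wt and 17.3 and 20.3 in shDicer, while VSTM2B had only 7 and 2 counts in wt and 45 and 56 in shDicer.

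In the opposite direction, ZNF8-DT gained 2.50 ± 0.11 and 2.77 ± 0.11 (SE) on ZNF8 relative to shDrosha (limma adjusted p = 3.4e-07 and 7.8e-08), and PKD2L2-DT gained 1.24 and 1.34 on PKD2L2 (adjusted p = 0.00017 and 0.0001). NDUFV1-DT, beside the gene of a subunit of respiratory complex I, had 51.5 and 50.8 CPM in wt, 65.5 and 58.8 in shDicer, 66.8 and 64.5 in shAgo2 and 53.4 and 53.2 in shDrosha. NDUFV1 went the other way, from 106 and 99.0 CPM in wt to 57.7 and 53.6, 41.3 and 44.5, and 74.9 and 81.9. The ratio rose by 0.71 and 1.17 relative to shDrosha (limma adjusted p = 0.00041 and 1.2e-05), though 42.8% of the 31-base words of NDUFV1-DT were shared with other genes. RRS1-DT, beside a ribosome assembly gene, gained 1.02 in shAgo2 relative to shDrosha (limma adjusted p = 0.00051), and its gain of 0.50 in shDicer did not pass (adjusted p = 0.027). LRFN5-DT and PDXP-DT had gains on their partners against wt of 2.65 in shDicer and 2.14 in shAgo2, and relative to shDrosha neither passed (limma adjusted p = 0.0058 and 0.043). LRFN5, a synaptic adhesion gene, was at 1 and 2 counts in shDicer, while LRFN5-DT had 12.7 and 14.8 CPM in wt and 14.3 and 13.4 in shDicer.

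**Figure D4:**
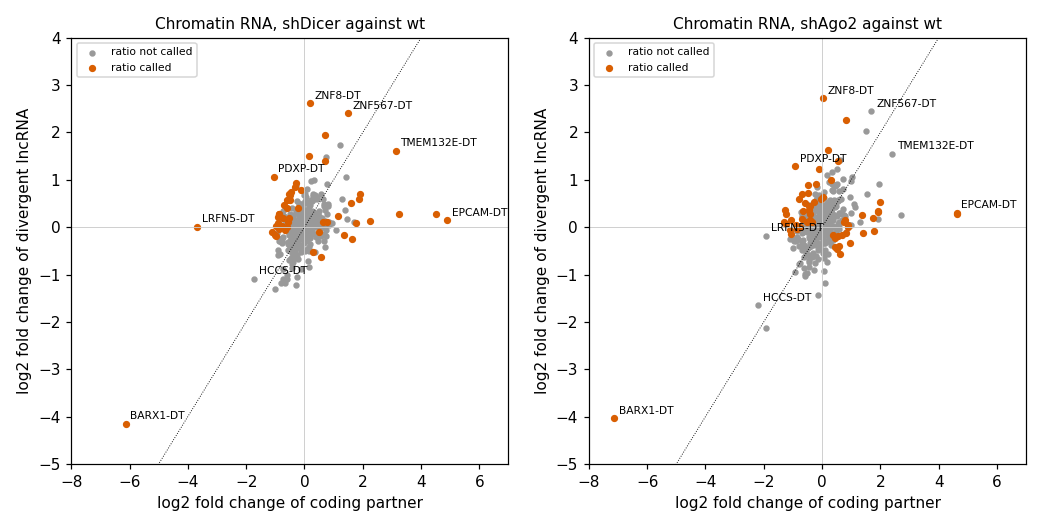
Log2 fold change of each divergent lncRNA (vertical) against that of its coding partner (horizontal) in chromatin RNA, shDicer on the left and shAgo2 on the right, both against wt, over 366 pairs. Pairs whose ratio passed the limma test are coloured (51 and 59), the dotted line marks equal change, and pairs such as EPCAM-DT lie near 0 on the vertical axis while the partner rose.

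In the libraries labelled shDrosha the lncRNAs hardly changed against wt. At the threshold of 0.05, 2 rose and 1 fell, where 1.20% of all genes rose and 2.18% fell, and the ratio to the partner changed in 3 of 366 pairs, beside 1.74% of all pairs. At an unadjusted edgeR p under 0.05 there were 24 and 18 of the 371 lncRNAs, beside 2902 and 3382 of all 32874 genes. DESeq2 called 1 lncRNA, which fell. PDXP-DT, beside a pyridoxal phosphatase gene, had 1.90 and 1.96 CPM in wt and 4.51 and 3.65 in shDrosha, 4.89 and 3.18 in shDicer and 5.21 and 4.15 in shAgo2. Every library of the other groups lay above wt, and the log2 fold change in shDrosha was 1.08 ± 0.26 (SE, edgeR adjusted p = 0.046), with 34.7% of the exon bases of PDXP-DT opposite exons of other genes. RRAGC-DT, beside the gene of a Rag GTPase of amino acid sensing, had 5.04 and 4.23 CPM in wt, 8.96 and 8.17 in shDrosha, 5.11 and 4.34 in shDicer and 5.36 and 3.82 in shAgo2. It was high in shDrosha alone, by 0.88 ± 0.18 against wt (edgeR adjusted p = 0.024), and shDicer and shAgo2 lay below shDrosha (adjusted p = 0.0023 and 0.0017). CAPN10-DT, described above, fell by 0.54 ± 0.10 (SE, edgeR adjusted p = 0.014). The ratio to the partner rose for PDXP-DT, NFE2L1-DT and NDUFV1-DT, by 1.45, 0.66 and 0.45 (limma adjusted p = 0.009, 0.023 and 0.044). Leaving out wt replicate 1 or 2 or shDrosha replicate 1 gave 0 rising lncRNAs, leaving out an shAgo2 replicate gave 1, and CAPN10-DT was no longer called without either wt replicate. The 3 pairs became 0 without wt replicate 1 or 2 or shDrosha replicate 1, and 1 without shDrosha replicate 2 or an shAgo2 replicate.

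Between shDicer and shAgo2 themselves, 0 of the 371 lncRNAs were higher in shDicer and 2 were lower by edgeR at an adjusted p under 0.005, where 1.37% and 1.34% of all genes were. At an unadjusted edgeR p under 0.05 there were 21 and 30 lncRNAs, beside 3937 and 3814 of all 32874 genes, and DESeq2 called 0 and 1 lncRNAs. GMDS-DT, beside the gene of an enzyme of GDP-fucose synthesis, had 81.3 and 75.4 CPM in wt, 97.4 and 112 in shDicer, 165 and 148 in shAgo2 and 93.4 and 90.1 in shDrosha. It was highest in shAgo2 without overlap, with a log2 fold change of −0.59 ± 0.09 (SE) in shDicer relative to shAgo2 (edgeR adjusted p = 0.002). GMDS was lower in shDicer than in shAgo2 as well, with −0.55 (adjusted p = 0.00078). RNF32-DT had 13.2 and 14.3 CPM in wt, 11.1 and 11.2 in shDicer, 18.3 and 16.7 in shAgo2 and 12.8 and 10.9 in shDrosha. Here shAgo2 was high and shDicer low, with a log2 fold change of −0.65 ± 0.11 (SE, edgeR adjusted p = 0.0043), while RNF32 was not called. Both calls were lost without wt replicate 1 or 2, shAgo2 replicate 1 or 2, or shDicer replicate 1, and GMDS-DT alone was called without shDicer replicate 2.

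In mRNA-seq, whose libraries had no part in choosing the lncRNAs, 159 of the 371 had enough counts to be tested. Of these 9 rose and 9 fell in shDicer against wt (edgeR adjusted p under 0.001), or 5.66% each way, where 15.6% of all 15089 genes rose and 14.2% fell. The tested lncRNAs were of low abundance, with a median log2 CPM of 0.83 against 4.11 over all genes tested. FAM111A-DT, beside the gene of a nuclear protease that restricts viral replication, had 0, 0.089 and 0.41 CPM in wt and 1.88, 1.59 and 1.67 in shDicer, from 0, 1 and 4 counts in wt. The groups did not overlap, and the log2 fold change was 3.42 ± 0.59 (SE, edgeR adjusted p = 0.00055). FAM111A rose likewise, from 0.081, 0.53 and 0.41 CPM to 11.7, 11.4 and 16.3, and in chromatin FAM111A-DT was higher in shDicer than in shDrosha by 0.77 (adjusted p = 0.0012).

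ZNF567-DT had 1.05, 1.42 and 1.13 CPM in wt mRNA-seq and 4.70, 4.46 and 4.77 in shDicer, a log2 fold change of 1.94 ± 0.23 (SE, edgeR adjusted p = 3.2e-05). INSIG1-DT, beside a gene of sterol sensing, had 1.46, 0.98 and 2.15 CPM in wt and 6.11, 5.30 and 5.43 in shDicer, and rose by 1.89 ± 0.26 (adjusted p = 0.00011). INSIG1 rose by 0.72 and had 94.9 to 125 CPM in wt. ZNF230-DT and WASL-DT rose by 1.97 and 1.17 (adjusted p = 0.00051 and 0.00017), and 3 others by 0.84 to 1.16. Taken relative to their neighbouring genes, ZNF567-DT, ZNF230-DT and WASL-DT had log2 fold changes of 0.88, 0.98 and 0.35 and were no longer called (edgeR adjusted p = 0.008, 0.036 and 0.11). The ZNF230-DT call was also lost without any 1 of the 6 libraries (log2 fold changes 1.78 to 2.10), that of WASL-DT without wt replicate 1 or 2 (1.19 and 1.11) and that of INSIG1-DT without wt replicate 1 (1.88).

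HCCS-DT was the lncRNA with the lowest value relative to wt among those that fell. It had 2.84, 2.58 and 3.99 CPM in wt and 0.24, 0.38 and 0.24 in shDicer, or 3 to 5 counts per library, with a log2 fold change of −3.43 ± 0.36 (SE, edgeR adjusted p = 1.4e-05). HCCS fell too, with a log2 fold change of −1.29. RIPK2-DT had 9.08, 9.87 and 9.31 CPM in wt and 2.74, 3.10 and 3.34 in shDicer, a log2 fold change of −1.61 ± 0.16 (SE, edgeR adjusted p = 1.1e-05), beside −1.79 in RIPK2. Both were separate from wt in every library, as in chromatin. ZNF691-DT, TMCC1-DT, ANKRD42-DT and RBM33-DT had log2 fold changes of −1.34, −1.22, −1.20 and −1.14 (edgeR adjusted p = 0.0008, 0.00012, 0.00037 and 0.00013). GARS1-DT had 15.2, 14.6 and 14.1 CPM in wt and 7.60, 8.25 and 10.1 in shDicer (log2 fold change −0.75, adjusted p = 0.0009), while in chromatin it was not called. Its partner GARS1 fell in mRNA-seq with a log2 fold change of −0.99.

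The ratio to the partner changed in 5 of 154 pairs in mRNA-seq, with 4 gains and 1 loss, where 13.7% of all pairs changed. The lncRNAs tested there were rare and less precisely measured, with a median SE of the log2 fold change of 0.30, against 0.14 over all genes. A change of the ratio was thus harder to detect in these pairs, and nothing is read from the lower share. Among the gains, PAXIP1-DT and MOCS2-DT gained 1.25 and 0.81 on their partners, while the log2 ratio of EPCAM-DT changed by −5.93 ± 0.34 (SE, limma adjusted p = 1.6e-06), with EPCAM at 1.51 to 2.19 CPM in wt and 156 to 183 in shDicer. MOCS2 codes for a subunit of molybdopterin synthase. Leaving out any 1 of the 6 libraries left 1 or 2 such pairs. Of the lncRNAs that rose in mRNA-seq, 5 had a rising partner and 4 one not called, and of those that fell, 6 had a falling partner and 3 one not called. The counts of 9 and 9 were 2 to 8 and 4 to 7 when 1 library was left out. Rising lncRNAs numbered 2 without wt replicate 1 or 2, 4 without shDicer replicate 2 or 3 and 5 without wt replicate 3, and falling ones 4 and 5 without wt replicates 1 and 2.

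Chromatin RNA and mRNA-seq of shDicer came from different libraries. Of the 159 lncRNAs tested in both, 15 rose in chromatin against wt, and 5 of these were among the 9 that rose in mRNA-seq, which is 33.3% of the former and 55.6% of the latter. Of 13 that fell in chromatin, 4 were among the 9 that fell in mRNA-seq, or 30.8% and 44.4%. Over all 14949 genes tested in both, these shares were 58.7% and 59.0% for rises and 40.9% and 53.7% for falls. With shDrosha as the chromatin reference, 4 of 16 rising lncRNAs also rose in mRNA-seq and 5 of 14 falling ones also fell, where 57.9% of the rising and 46.6% of the falling genes did so over all genes. At these small numbers, the shares of the lncRNAs are given as a description. ZNF8-DT, the strongest rise in shDicer chromatin, had 3.08, 2.94 and 3.17 CPM in wt mRNA-seq and 1.72, 1.74 and 1.67 in shDicer. It was lower there in every library, but the log2 fold change, −0.84 ± 0.23, was not called (SE, edgeR adjusted p = 0.0083), and ZNF8 had 13.4, 13.1 and 14.2 CPM in wt and 17.2, 15.8 and 16.6 in shDicer.

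**Figure D5:**
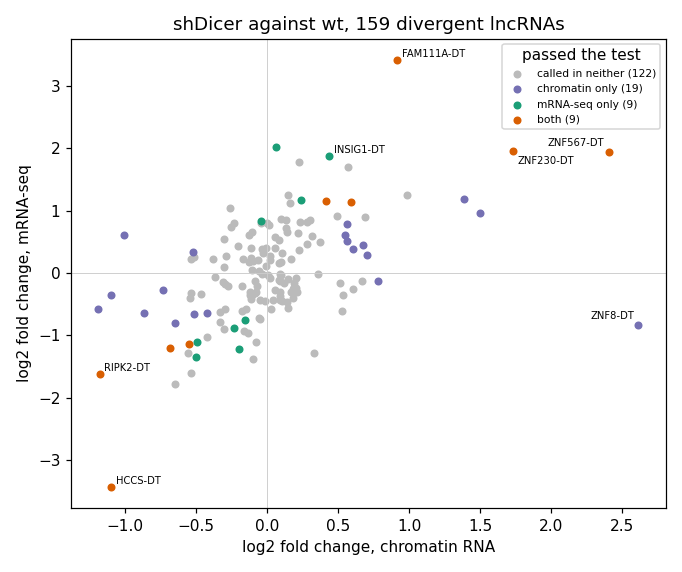
Log2 fold change of shDicer against wt in chromatin RNA (horizontal) and in mRNA-seq (vertical) for the 159 divergent lncRNAs tested in both, coloured by where they were called (122 in neither, 19 in chromatin, 9 in mRNA-seq, 9 in both). Those called in both lie in the upper right and lower left, and ZNF8-DT lies at 2.61 and −0.84.

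Genes whose products end, process or remove divergent transcripts were examined as a list of 51, and many of them fell in chromatin of both inducible lines. In shDicer 23 of the 51 fell against wt and the rest were not called, and in shAgo2 2 rose and 24 fell, beside the shares of all genes given above. The median log2 fold change was −0.36 and −0.37, and 0.01 and 0.00 over all genes. The coding partners had a median log2 CPM of 5.36 against 2.86 over all genes. Of these 366 partners, 61 rose and 86 fell in shDicer against wt, and 65 and 86 in shAgo2, with medians of −0.10 and −0.08. The part of abundance in the shares of the 51 was not tested. Relative to shDrosha 3 rose and 16 fell in shDicer, and 3 rose and 18 fell in shAgo2, where the shares of all genes and partners are given above. In shDrosha 5 fell, beside 2.18% of all genes. In shDicer mRNA-seq 3 rose and 16 fell, beside 15.6% and 14.2% of all genes. The counts of the parts of the list that follow are to be read beside these same shares. As both inducible lines share the wt libraries, these are not independent counts, and whether the changes of these genes bear on the lncRNAs was not tested.

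Of 13 genes of the nuclear exosome, 8 fell in shDicer and 8 in shAgo2 chromatin against wt, and 1 rose and 5 fell in mRNA-seq. Relative to shDrosha 1 rose and 4 fell in shDicer, and 1 rose and 6 fell in shAgo2. DIS3, a catalytic subunit, had 181 ± 9.73 CPM in wt and 186 ± 13.3 in shDrosha chromatin, against 85.0 ± 4.58 in shDicer and 88.3 ± 1.42 in shAgo2 (SD, n = 2). In mRNA-seq it had 616 ± 35.3 CPM in wt and 142 ± 11.1 in shDicer (SD, n = 3), with a log2 fold change of −2.12 (edgeR adjusted p = 1.4e-08). EXOSC10, the other nuclear nuclease, rose in mRNA-seq by 0.48. Of the 3 genes of the NEXT complex and the 2 of PAXT, which lead RNA to the exosome, no call was made in chromatin against wt by edgeR, and 1 of each fell in mRNA-seq, RBM7 of NEXT with −0.92 and ZFC3H1 of PAXT with −1.19. RBM7 was also lower in chromatin relative to shDrosha, with −0.43 in shDicer and −0.39 in shAgo2 (edgeR adjusted p = 0.0023 and 0.0036).

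Of 14 Integrator genes, whose complex ends short transcription units, 5 fell in shDicer and 1 rose and 6 fell in shAgo2 chromatin against wt, and 1 rose and 5 fell in mRNA-seq. Relative to shDrosha 1 rose and 5 fell in each inducible line. Against wt INTS5 fell with log2 fold changes of −1.02 and −1.08, and the catalytic subunit INTS11 rose in shAgo2 by 0.47 and in mRNA-seq by 1.03. Of 12 cleavage and termination genes 6 fell in each inducible line against wt, and 1 rose and 3 fell in mRNA-seq. Relative to shDrosha 5 fell in shDicer and 3 in shAgo2. CPSF1 fell with −0.93 and −1.06 against wt and was called in both lines relative to shDrosha. CSTF2 fell with −1.25 and −1.18 against wt, but also in shDrosha with −0.63. It was called in neither line relative to shDrosha. Of 4 genes of nuclear cap binding 2 fell in shDicer and 3 in shAgo2 against wt, and 1 and 2 relative to shDrosha. Of the 3 U1 snRNP protein genes, 2 fell in shDicer, and 1 rose and 1 fell in shAgo2 against wt. Relative to shDrosha 1 rose and 0 fell in shDicer, and 1 rose and 1 fell in shAgo2. SNRNP70 fell in both lines against wt, with −0.82 and −0.996, but also in shDrosha with −0.51. Relative to shDrosha it was called in shAgo2 alone. SNRPA rose against wt in shAgo2 by 0.37, and relative to shDrosha in both lines, by 0.60 and 0.64. In shDrosha chromatin 1 gene of cap binding, 1 of Integrator, 1 of U1 snRNP and 2 of cleavage and termination fell.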

How the data were processed

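Chromatin RNA was sequenced in 8 libraries and mRNA in 6, and small RNA libraries were not analysed here. The authors deposited expected counts per transcript estimated by kallisto, which divides reads shared between transcripts, and TPM values per transcript, which the authors' tool scaled by effective length, 1 table per library. An Ensembl index of cDNA and non-coding RNA and a stranded setting are stated by the study, and hg38 is named in the submitters' processing notes. Whether the chromatin kit marks strand is not given in the sources used here, and the mRNA libraries are labelled poly(A) RNA while the methods describe ribosomal RNA depletion.

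Transcript identifiers were matched without version to GENCODE release 44 on GRCh38 (193697 of 217082, 89.2%, with 93.4 to 94.8% of the counts of a library), summed per gene and rounded. edgeR 4.0.16 (R 4.3.3) was run with TMM scaling, filterByExpr and its quasi-likelihood test, with 1 fit over the chromatin and 1 over the mRNA libraries, and Benjamini-Hochberg adjustment over all genes tested. The thresholds were 0.005 for shDicer and shAgo2 and their comparison, 0.05 for shDrosha and 0.001 for mRNA-seq. Per-library values are CPM scaled by TMM. The ratio of lncRNA to partner was tested with limma 3.58.1 on log2 CPM (prior count 2) over all head-to-head pairs up to 5 kb apart and all pairs described. DESeq2 1.42.0 was an alternative. On simulated data with 200 genes changed by a log2 value of 2, edgeR recovered 196 of 200 among 32116 genes for chromatin shDicer against wt and 197 of 200 among 14801 for mRNA-seq. The changed genes were drawn from those above a limit of mean counts, and all genes were given the same fixed spread. The recovery therefore does not measure how well changes of rare lncRNAs or smaller changes are found.

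A count of 3 corresponds to 0.139 to 0.172 CPM in chromatin and 0.174 to 0.294 CPM in mRNA-seq, and such limits cover counting error only. Samples were grouped by their labels. The genes named were the 8 highest in wt, up to 6 called in each direction per comparison whose libraries did not overlap, up to 5 called pairs per direction, and the genes nearest the count limit. A few genes that these rules name are not reported here. ZDHHC12-DT, the examples among the 51 processing genes and the group of ZNF partners were singled out after their values were seen. The lncRNAs, the gene lists and the tests were chosen with earlier results of these data known. Neighbouring genes are the 25 tested genes on each side. The alternatives were DESeq2, counts scaled from TPM, library size scaling, no filter, other thresholds, a neighbourhood offset, shDrosha as reference, a replicate block and leaving out each library.

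Same-numbered libraries were checked for pairing by the correlation of their deviations from the group means, which in mRNA-seq was 0.066, 0.046 and 0.081. In chromatin it ranged from −0.131 to 0.028, so that the numbers were not taken to pair the libraries.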

Additional observations from a re-analysis of the deposited data

Results flagged for a closer look

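GMDS-DT and RNF32-DT differed between shDicer and shAgo2 in chromatin RNA in the direct comparison (edgeR), with log2 fold changes of −0.59 and −0.65 in shDicer relative to shAgo2. ZNF8-DT and ZDHHC12-DT had chromatin and mRNA-seq values that went opposite ways in every shDicer library relative to every wt library. ZNF8-DT had a log2 fold change of 2.61 in chromatin and −0.84 in mRNA-seq. ZDHHC12-DT had 3.08 and 3.28 CPM in wt and 1.74 and 1.43 in shDicer chromatin, a log2 fold change of −1.003 (edgeR adjusted p = 0.0041). In mRNA-seq ZDHHC12-DT had 1.54, 1.78 and 1.33 CPM in wt and 2.27, 2.27 and 2.56 in shDicer, with a log2 fold change of 0.61 and no call (edgeR adjusted p = 0.058). The difference between both assays was not tested for either gene.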

How the results depend on the processing

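The direction of all 41 log2 fold changes of named lncRNAs was kept in the 606 values that the alternative fits gave for them. Each fit gave many of these values, so that they are not independent. In 93 of the values the call was lost, of which 59 came from leaving out 1 library and 12 from counts scaled from TPM. A neighbourhood offset gave 11, DESeq2 6 and a replicate block 5 of these lost calls. RNF32-DT and, in mRNA-seq, ZNF230-DT and ZNF691-DT each lost the call under 10 alternatives, GMDS-DT and PDXP-DT under 8 and FAM111A-DT under 7.

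For the counts of lncRNAs, leaving out 1 library gave 10 to 26 rising and 9 to 21 falling in shDicer against wt, 14 to 46 and 8 to 25 in shAgo2, 0 to 3 and 0 to 1 in shDrosha, 0 to 2 falling in shDicer against shAgo2, and 2 to 8 and 4 to 7 in mRNA-seq. At an adjusted p under 0.05 there were 51 rising and 43 falling in shDicer, 70 and 42 in shAgo2, 6 and 8 in shDicer against shAgo2, and 28 and 28 in mRNA-seq, and at 0.005 there were 0 and 0 in shDrosha. With DESeq2, 12 fell in shDicer, 26 rose in shAgo2, 0 rose in shDrosha and 1 fell in shDicer against shAgo2. With counts scaled from TPM, 13 fell in shDicer, 0 rose and 0 fell in shDrosha, 0 fell in shDicer against shAgo2 and 4 fell in mRNA-seq. Among lncRNAs at 100 or more wt counts, 12 rose in shDicer, 21 in shAgo2, 0 in shDrosha and 4 in mRNA-seq. With a neighbourhood offset, 0 fell in shDrosha and in shDicer against shAgo2, and 5 rose in mRNA-seq. With library size scaling 5 rose in shDrosha, and without a filter 17 rose in mRNA-seq. The causes of these shifts were not tested, except that fewer lncRNAs or libraries enter by construction.

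The lncRNA to partner ratio changed in 15 to 48 pairs in shDicer, 18 to 64 in shAgo2, 0 to 3 in shDrosha and 1 to 2 in mRNA-seq when 1 library was left out. In shAgo2 it changed in 38 pairs relative to shDrosha, a reference chosen after the data were seen. In mRNA-seq it changed in 2 pairs within 1 kb and in 3 with 50 or more counts in both genes.

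Libraries share only a replicate number. With a replicate block, 0 lncRNAs fell in shDicer against shAgo2, 21 rose and 16 fell in shDicer, 34 and 17 in shAgo2 and 7 and 8 in mRNA-seq, and the ratio changed in 29 pairs in shDicer, 1 in shDrosha and 8 in mRNA-seq. With the shDrosha numbers crossed in the block, chosen after the data were seen, 32 rose and 26 fell in shDicer, 49 and 28 in shAgo2, 10 and 2 in shDrosha, and 4 fell in shDicer against shAgo2. In mRNA-seq each library correlated best with the library of its own number, a hint from the data and not from the design, although each r stayed below 0.1. In mRNA-seq 159 of the 371 lncRNAs had enough counts to be tested, and changes of the others were not detectable at this depth.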
